A study of Homo sapiens with 29 samples.

Results

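Genes of the replication-dependent histones were followed in 18 RNA-seq libraries of IMR90 ER:RAS cells, a human lung fibroblast line. Members were taken by their symbols, which name the linker histone H1 and the core histones H2A, H2B, H3 and H4 of the clustered gene families. Of 28266 gene symbols, 69 matched, and 16 of these had 10 or more counts in at least 5 libraries. The 16 were 2 of 7 H1 genes, 3 of 17 H2A genes, 6 of 18 H2B genes, 3 of 13 H3 genes and 2 of 14 H4 genes. H1-10 was taken in by the letters of its symbol and is a replication-independent linker histone, so it is reported beside the others but is not a replication-dependent gene. It is counted in the sums, medians and numbers of members given below.

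Core histones form the protein spool of the nucleosome, with the linker histone H1 bound where DNA enters and leaves it. Cells make most of their histone mRNA in S phase, when new DNA has to be packaged, and remove it when replication ends. Unlike other mRNAs, a replication-dependent histone mRNA ends just past a short stem-loop and carries no poly(A) tail. SLBP binds that stem-loop, and NPAT, which is switched on by cyclin E and CDK2, drives transcription of the genes. Polyadenylated forms of some of these mRNAs, ending past the stem-loop, are known in cells that have stopped dividing. The libraries here were made from poly(A)-enriched RNA, so the counts report what that enrichment left of these genes and not their whole RNA output. How much of the RNA of each gene carried a tail was not measured.

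Every library is labelled as from cells that carry ER:RAS, a fusion of the estrogen receptor with oncogenic RAS that 4-hydroxytamoxifen (4OHT) switches on. DMSO siNT cells received the solvent and non-targeting siRNA and kept growing, and 4OHT siNT cells were driven into oncogene-induced senescence. The 4OHT siSMARCA4 cells were in addition depleted of SMARCA4, an ATPase of the SWI/SNF chromatin remodelling complex with SMARCA2 as its paralog. The siRNA was given 1 day before 4OHT, cells were collected on day 7, and each group had 6 libraries, with siRNA numbers 2 and 4 in each. Libraries are named by siRNA number and set label (for example 4-2V). The meaning of the letters V and VM is not stated, all 4OHT siNT libraries were of VM sets, and the other groups held both kinds. The labels do not say that the libraries came from separate cultures, so p-values measure the spread between these libraries, which may be technical.

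Library totals were 9657309 to 13448183 counts in DMSO siNT, 13237672 to 15407710 in 4OHT siNT and 11382143 to 18039313 in 4OHT siSMARCA4. SMARCA4 itself stood at 99.0 ± 27.6 counts-per-million (CPM) after its siRNA against 301 ± 20.9 CPM in 4OHT siNT (SD, n = 6 each). Summed fibroblast markers were 10765 to 39855 CPM in all libraries, while summed epithelial markers stayed at or under 11.4 CPM and endothelial markers at or under 15.6 CPM. Leukocyte markers summed to 45.04 to 75.02 CPM, and CD68 was the only 1 of 6 that passed the filter of the test. Fibroblast markers fell with the siRNA against SMARCA4, with 7 of 10 lower and 0 higher against 4OHT siNT, and 5 lower and 1 higher in 4OHT siNT against DMSO siNT (7 and 1 without DMSO siNT 4-2V), and the part of this in the histone values was not tested. One library stood apart, DMSO siNT 4-2V, which had the fewest counts of all and the most genes detected (17915). The genes of the construct went against its label: ESR1 was at 29.5 CPM (247 counts) against 1034 to 1316 CPM in the other 5 DMSO siNT libraries, and HRAS at 436 CPM against 2165 to 2852 CPM, both the lowest of the 18 libraries. Its fibroblast markers summed to 15337 CPM against 31996 to 39855 CPM in the others of the group. Its summed level of 18 RNAs that lack a poly(A) tail, such as 7SK and 7SL RNA, was 66.1 CPM against 9.70 to 13.6 CPM in the other DMSO siNT libraries. The same sum was 16.8 to 26.95 CPM in 4OHT siNT, in every library above those 5 libraries. In 4OHT siSMARCA4 it was 68.5 CPM in library 4-3V and 13.01 to 20.3 CPM in the other 5. Of the 18 RNAs, 5 were tested. In 4OHT siNT against DMSO siNT 0 were called (median log2 fold change 0.58), and 2, RN7SL2 and RPPH1, were higher without DMSO siNT 4-2V (median 1.03, edgeR). Of all genes, 23.9% and 27.9% were called higher in these fits. In 4OHT siSMARCA4 against DMSO siNT 1, SNORA73B, was called higher (median 0.81), and 4 were without that library (median 1.25), beside 23.3% and 28.7% of all genes. Leaving out DMSO siNT 4-2V, the sum of RNAs that lack a tail thus lay higher in every 4OHT siNT library, as did the 8 histone genes called higher there. In 4OHT siSMARCA4 the sum of library 4-2V, 13.01 CPM, lay within the range of the other 5 DMSO siNT libraries. The part of RNA that lacks a tail in the histone values was not tested. Called results against DMSO siNT that changed without DMSO siNT 4-2V, and the counts of lists, are given with and without it.

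The stem-loop is the shared feature of these genes that the choice of members did not use. The letters GGNNCTNNNNAGNNCC, with both inner pairs of the stem able to pair, were searched in 1500 bases from the start. They were found in 15 of the 16 genes, all but H1-10. They were also present in 52 of the 53 members with fewer counts. In 1500 bases from the annotated gene start, 27 of 4126 other protein-coding genes of chromosomes 1, 3 and 6 held them (0.654%), and 4 of those 27 carry histone names. For the members the search began at the start of the shortest coding transcript, unspliced where there was one, so the shares are not fully alike. The sequences are printed for the members whose levels are described most closely, 5′ to 3′ on the strand of the gene (hg38), with the stem-loop in capitals.
H1-2, chr6:26055739-26055764, minus strand: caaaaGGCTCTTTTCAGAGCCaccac
H2AC8, chr6:26217412-26217437, plus strand: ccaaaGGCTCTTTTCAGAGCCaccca
H2BC8, chr6:26216213-26216238, minus strand: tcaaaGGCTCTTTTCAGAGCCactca
H2BC21, chr1:149886183-149886208, minus strand: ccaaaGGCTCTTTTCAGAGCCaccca
H2BC4, chr6:26123467-26123492, minus strand: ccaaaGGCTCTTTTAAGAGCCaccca
H2BC11, chr6:27132316-27132341, minus strand: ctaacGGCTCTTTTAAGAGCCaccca
H2BC12, chr6:27146361-27146386, minus strand: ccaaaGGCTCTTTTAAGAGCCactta
H3C6, chr6:26225591-26225616, plus strand: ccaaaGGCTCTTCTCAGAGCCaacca
H4C5, chr6:26204996-26205021, plus strand: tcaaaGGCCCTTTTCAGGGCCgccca
H4C8, chr6:26285126-26285151, minus strand: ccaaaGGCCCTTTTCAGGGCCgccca
H1-2, H2AC8, H2BC8 and H2BC21 had the same 16 letters, which 8 of the 16 genes and 30 of the others carried. Of the H2B genes, 4 had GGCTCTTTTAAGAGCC, both H4 genes had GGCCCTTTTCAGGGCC, and H3C6 was the only one of the 69 with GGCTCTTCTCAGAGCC. Genes with the same stem-loop therefore lie on both sides of the results given further on, since H1-2 was lower and H2AC8 and H2BC8 were higher in 4OHT siNT than in DMSO siNT.

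The annotation (GENCODE 44) gave 8 of the 16 genes a transcript that ends 100 or more bases past the stem-loop, against 7 of the 53 members with fewer counts. These 8 were H2AC6, H2BC4, H2BC5, H2BC11, H2BC21, H3C6, H3C10 and H4C8. For H2BC21, an H2B gene on chromosome 1 (chr1:149884459-149886682, minus strand), the single annotated transcript is 2224 bases long and runs 1729 bases past the stem-loop. For H2BC4, H2BC5 and H2BC11 the longer transcripts leave the stem-loop out by splicing, for H2AC6 1 of 2 longer transcripts does so and the other keeps it, and the most distant annotated end, for H2BC4, lies 37155 bases past it. The other members end at the stem-loop in the annotation, among them H1-2 (chr6:26055740-26056470, minus strand), H2AC8 (chr6:26216921-26217437, plus strand), H2BC8 (chr6:26216200-26216688, minus strand), H2BC12 (chr6:27146361-27146855, minus strand) and H4C5 (chr6:26204610-26205021, plus strand). The poly(A) signal AATAAA was present within 1000 bases past the stem-loop in 6 of the 16 genes and in 26 of the 53, and in H1-2 and H2BC5 it lay 13 bases past it. The deposited table gives 1 count per gene, so it does not show which of these transcripts the reads came from.

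**Figure D1:**
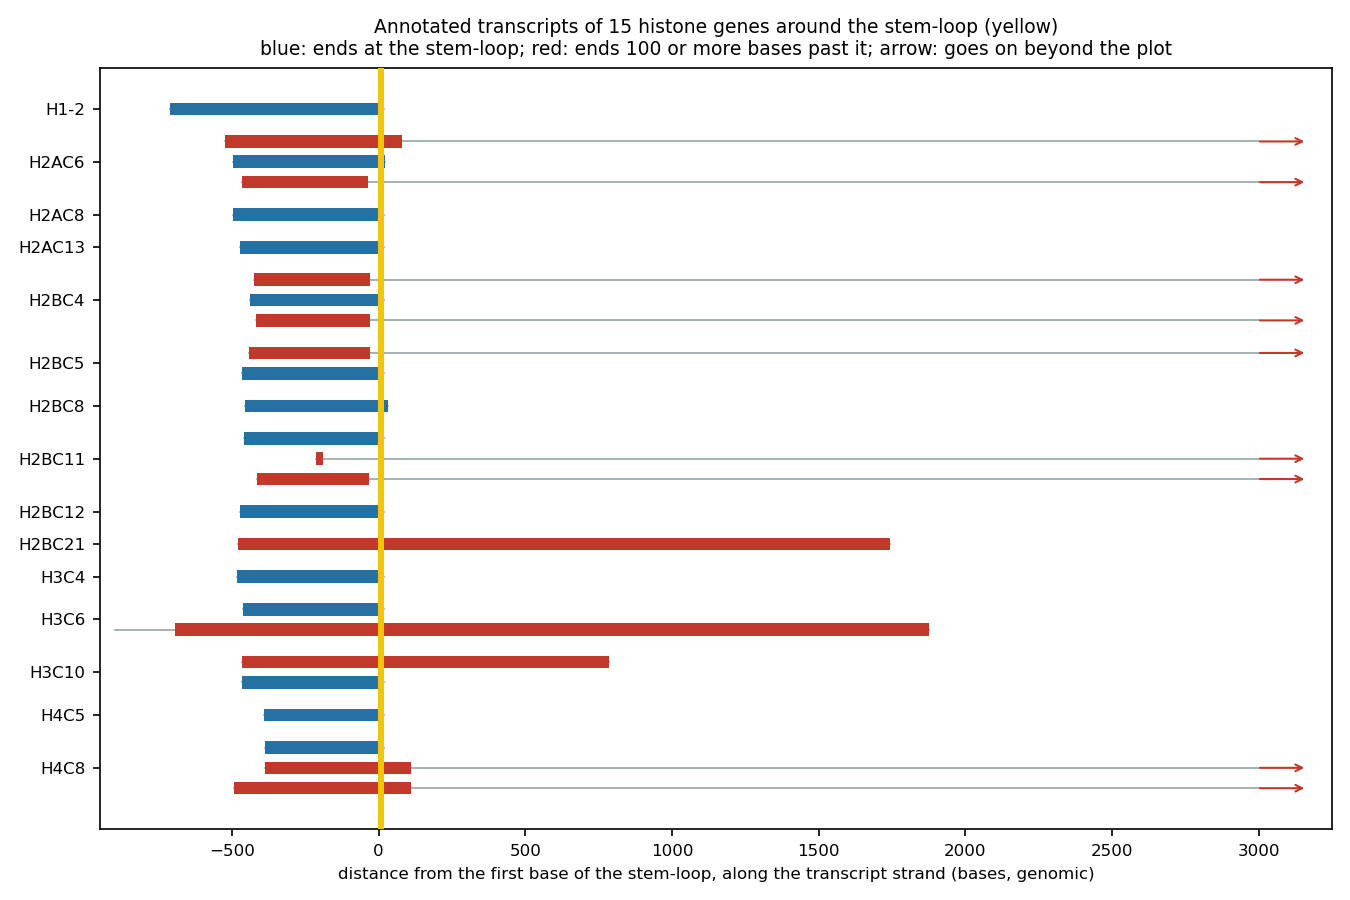
Annotated transcripts of the 15 genes with a stem-loop, drawn as distance in genomic bases from the first base of the stem-loop (yellow). Boxes are exons and lines are introns; transcripts in blue end at the stem-loop, and those in red, found for 8 genes, end 100 or more bases past it, with an arrow where they go on beyond the plot.

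Levels were low as a whole. The 69 genes together held 0.0294% to 0.0361% of the counts in DMSO siNT, 0.0384% to 0.0419% in 4OHT siNT and 0.0358% to 0.0469% in 4OHT siSMARCA4. A few genes carried most of it: H1-10, H2BC12, H2BC21 and H2AC6 made up 75.2%, 77.7% and 76.9% of the summed CPM of the 16 genes in the 3 groups. Of the 53 other members, 13 had 0 counts in every library. The remaining 40 never exceeded 17 counts, a value reached by H4C3 in DMSO siNT 4-2V, and all 53 together held 43 to 91 counts per library. For members at 0 throughout, a count of 0 allows up to 3 counts per library, so nothing can be said of changes in them at this depth. Depth is not the only limit, since 8 of these 13, and 14 of all 53, had fewer than 50% of their 72-base windows unique among the transcripts, so their reads may not have been assigned to them. Such intervals cover counting error only.

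Per kilobase of annotated exon, H2BC12 was the highest member in each group, at 181, 213 and 255 CPM per kilobase in DMSO siNT, 4OHT siNT and 4OHT siSMARCA4. H1-2, a main linker histone of cultured cells, followed in DMSO siNT at 62.2 CPM per kilobase, where H1-10 was at 49.4 and H2BC21 at 23.4. In 4OHT siNT the order of these changed, with H1-10 at 49.4, H2BC21 at 43.3 and H1-2 at 31.1 CPM per kilobase. The 2 H4 genes were both at 1.05 CPM per kilobase in DMSO siNT. Where a long transcript is annotated, the value depends on the length used: H2AC6 stood at 13.7 CPM per kilobase over all its exons in DMSO siNT and at 44.1 over its 519-base transcript. Part of the reads of H2BC12 cannot be placed on it alone, because only 58.7% of its 72-base windows were unique among the transcripts. The same share was 3.7% for H3C4, whose exon lies in a gene annotated on the same strand, and 38.4% for H2AC13, and their values are uncertain for that reason. On the opposite strand, HFE and a gene without a symbol overlap H2BC4, another gene without a symbol overlaps H4C8, and H1-10-AS1 overlaps H1-10. A gene without a symbol also overlaps H2AC6 on the same strand, though 100% of the 72-base windows of H2AC6 were unique. The strand setting of the counting is not given in the sources used here.

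Summed over the 16 genes, the level was 319 ± 26.7 CPM in DMSO siNT, 399 ± 16.6 CPM in 4OHT siNT and 417 ± 36.2 CPM in 4OHT siSMARCA4 (SD, n = 6 each). H1-10, which is not replication-dependent, made up 23.5%, 18.8% and 20.1% of these sums. The 6 DMSO siNT libraries, at 281 to 349 CPM, lay below all 12 others, which were at 358 to 462 CPM. Classes differed in direction and size. As a ratio the H4 sum differed most, at 2.701 ± 1.26 CPM in DMSO siNT and 9.68 ± 1.74 CPM in 4OHT siNT (log2 ratio 1.84, against 0.51 to 0.67 for H2A, H2B and H3). It holds only H4C5 and H4C8, and H4C5 passed the count rule through the 4OHT libraries, which favours a rise. H4C8 had a log2 fold change of 1.64. In DMSO siNT the H4 sum was 0.598 CPM in library 4-2V and 2.39 to 4.28 CPM in the others. In CPM the H2B sum differed most, at 165 ± 20.1 and 244 ± 13.3 CPM. H1 went the other way, from 120.4 ± 12.03 to 97.6 ± 10.05 CPM, and with all libraries that lay in H1-2. H1-2 held 14.3% of the summed CPM in DMSO siNT, 5.70% in 4OHT siNT and 7.35% in 4OHT siSMARCA4. Without DMSO siNT 4-2V, mean levels in DMSO siNT were 37.4 CPM for H1-2 and 80.8 CPM for H1-10. In 4OHT siNT they were 22.7 and 74.9 CPM, so H1-10 then had a part in the difference. No test was made on these sums.

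**Figure D2:**
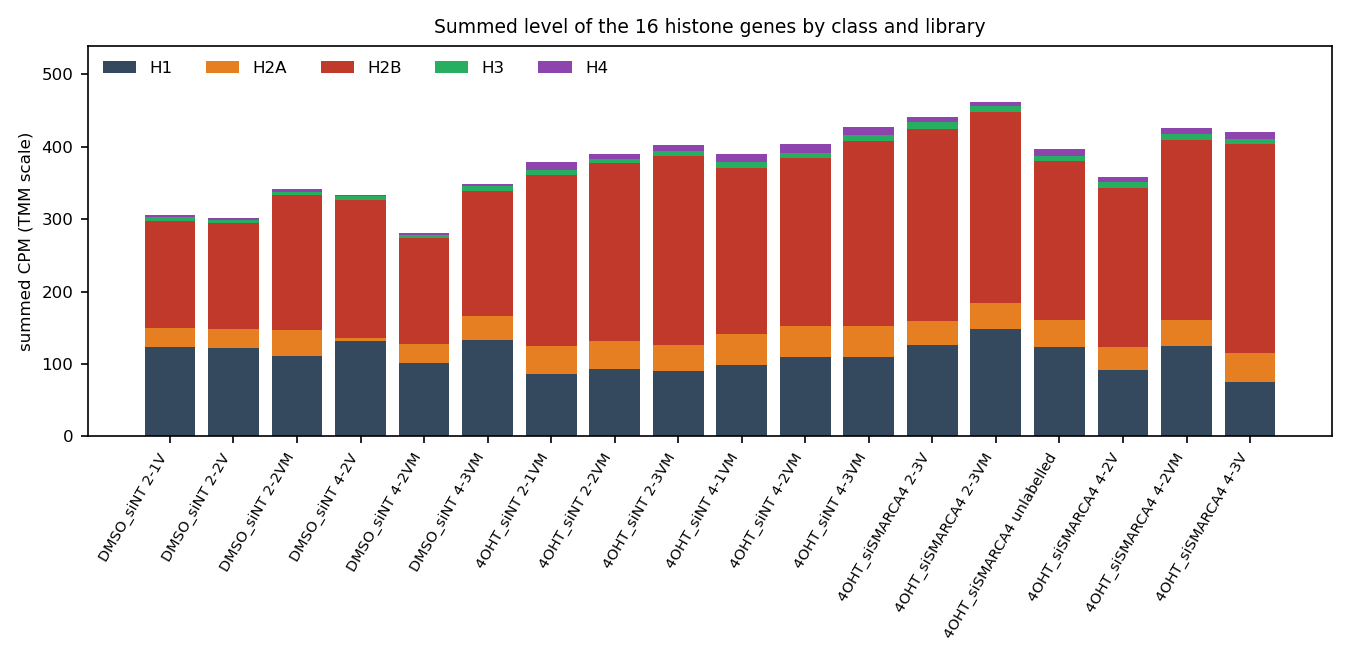
Summed CPM of the 16 genes in each of the 18 libraries, stacked by histone class (vertical axis from 0). The 6 DMSO siNT libraries reach 281 to 349 CPM and the 12 libraries with 4OHT 358 to 462 CPM, with H2B the largest class in every group and H4 a thin layer that is wider with 4OHT.

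The first comparison asked how the histone genes differ between senescent and growing cells. In 4OHT siNT against DMSO siNT, 8 of 15 tested members were higher and 1 was lower at an adjusted p under 0.05 (edgeR quasi-likelihood test, Benjamini-Hochberg over 13136 genes). Of all genes tested, 23.9% were called higher and 28.9% lower. Members called higher were the H4 genes H4C5 and H4C8, the H2A gene H2AC8, the H2B genes H2BC8, H2BC11, H2BC4 and H2BC21, and the H3 gene H3C6, and the member called lower was H1-2. The median log2 fold change of the 15 was 0.89, beside −0.05 for all genes. Since the count rule admits a gene through its high group, a rise is favoured for genes near the limit: H3C6 had 0 to 9 counts and H4C5 2 to 10 counts in DMSO siNT, and both passed through the 4OHT libraries. Their differences from DMSO siNT are therefore given as a description with no test. Without them, 6 of 13 members were higher and 1 lower, with a median of 0.53. H2AC13 passed the count rule with 2 to 15 counts but not the filter of the test.

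H4C5, one of many genes for the same H4 protein, had 0.239, 0.369 and 0.823 CPM as lowest, median and highest value in DMSO siNT. It had 1.80, 2.49 and 3.12 CPM in 4OHT siNT. The groups did not overlap, and the log2 fold change was 2.45 ± 0.26 (SE). H4C8 (chr6:26277609-26285638, minus strand) encodes the same protein and had 0.359, 2.28 and 3.78 CPM in DMSO siNT and 5.05, 7.46 and 9.35 CPM in 4OHT siNT. Its groups were apart as well, at a log2 fold change of 1.64 ± 0.30 (SE; adjusted p = 0.000133, edgeR). The lowest H4C8 value was that of DMSO siNT 4-2V, with 3 counts.

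H2AC8 and H2BC8 are a pair of neighbours that are transcribed away from each other, with 233 bases between their starts. H2AC8, an H2A gene, had 1.27, 1.76 and 2.27 CPM in DMSO siNT and 4.70, 6.48 and 7.03 CPM in 4OHT siNT. H2BC8, an H2B gene, had 1.31, 3.32 and 3.87 CPM in DMSO siNT and 9.69, 11.3 and 12.2 CPM in 4OHT siNT. For both genes every senescent library lay above every growing one. The log2 fold changes were 1.80 ± 0.19 for H2AC8 (adjusted p = 1.29e-07, edgeR) and 1.83 ± 0.19 for H2BC8 (adjusted p = 1.79e-07, edgeR). In the pair of H2AC6 and H2BC4, 246 bases apart, both partners were measured as well, and H2BC4 was called higher and H2AC6 was not. In the other pairs of this kind only 1 partner passed the count rule. H2BC12 had 868 to 1893 counts per library while its partner H2AC12, with starts 251 bases apart, had 0 to 2, and H2BC21 had 410 to 1400 counts while its partner H2AC20 had 0 to 7.

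The 250 bases before the start of H2BC8 span the stretch between it and H2AC8, and they are printed with those of H2BC21, which was also higher, and H1-2, which was lower (RefSeq, GRCh38.p14, 5′ to 3′ on the strand of the gene). Capitals mark the TATA box letters TATAAA, the octamer letters ATTTGCAT, the box CCAAT, and the letters AAACACA known from H1 promoters, each on either strand, so that the reverse complements also stand in capitals.
H2BC8, chr6:26216689-26216938, minus strand: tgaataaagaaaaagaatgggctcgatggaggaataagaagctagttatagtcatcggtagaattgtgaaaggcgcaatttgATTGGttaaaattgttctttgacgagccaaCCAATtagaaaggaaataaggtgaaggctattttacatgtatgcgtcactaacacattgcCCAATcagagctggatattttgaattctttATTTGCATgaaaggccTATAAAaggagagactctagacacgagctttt
H2BC21, chr1:149886683-149886932, minus strand: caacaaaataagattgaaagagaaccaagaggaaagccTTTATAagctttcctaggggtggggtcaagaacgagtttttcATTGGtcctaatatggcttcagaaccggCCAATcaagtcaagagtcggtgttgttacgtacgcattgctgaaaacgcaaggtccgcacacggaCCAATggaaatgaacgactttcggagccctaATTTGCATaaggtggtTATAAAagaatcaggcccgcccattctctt
H1-2, chr6:26056471-26056720, minus strand: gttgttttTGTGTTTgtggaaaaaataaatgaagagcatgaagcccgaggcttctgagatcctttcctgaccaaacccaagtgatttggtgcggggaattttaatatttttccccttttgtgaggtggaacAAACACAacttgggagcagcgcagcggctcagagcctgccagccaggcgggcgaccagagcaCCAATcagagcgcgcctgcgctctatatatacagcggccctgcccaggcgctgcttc
H2BC8 and H2BC21 each held TATAAA, the octamer and CCAAT, while H1-2 held CCAAT as well as AAACACA, and neither of the other motifs. TATAAA was present in 12 of the 16 promoters against 10.7% of 35116 promoters of the same length, the octamer in 7 against 1.63%, CCAAT in 13 against 32%, and AAACACA in 1 against 4.82%. Among the 8 genes called higher, 5 held TATAAA, 5 the octamer and 6 CCAAT. These 8 include H4C5 and H3C6, whose calls are a description only. H4C5 and H4C8 held none of the 4 motifs. Among the 6 genes not called, 6 held TATAAA, 2 the octamer and 5 CCAAT. All these counts are of genes and not of separate elements, since 250 bases can reach the start of a close neighbour. H2AC8 and H2BC8 share the same TATAAA and octamer, and that TATAAA lies nearer the start of H2BC8. H2BC4 likewise shares its TATAAA and octamer with H2AC6, which was not called. The number of separate elements was not tested. A match is a description of letters and not of a bound factor.

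H2BC21, the member on chromosome 1, had 46.9, 48.9 and 67.3 CPM in DMSO siNT and 87.2, 97.3 and 102 CPM in 4OHT siNT. The groups did not overlap, although DMSO siNT 2-2VM, at 67.3 CPM, lay above its own group, and the log2 fold change was 0.89 ± 0.11 (adjusted p = 1.11e-06, edgeR). Its share of the summed CPM went from 16.3% to 24.2%. H2BC4 had 1.43, 5.53 and 8.07 CPM in DMSO siNT and 8.65, 13.1 and 14.3 CPM in 4OHT siNT, and these were apart, at a log2 fold change of 1.17 ± 0.24 (adjusted p = 0.000416, edgeR). H2BC11 had 0.598, 1.01 and 1.12 CPM in DMSO siNT and 1.56, 2.30 and 3.10 CPM in 4OHT siNT, on 5 to 15 and 21 to 42 counts. Its groups were apart too, at a log2 fold change of 1.30 ± 0.23 (adjusted p = 7.68e-05, edgeR). H3C6, an H3 gene (chr6:26224199-26227473, plus strand), had 0, 0.547 and 0.655 CPM in DMSO siNT and 1.04, 1.79 and 2.23 CPM in 4OHT siNT. The single 0 was in DMSO siNT 4-2V, the groups did not overlap, and the log2 fold change was 1.76 ± 0.33.

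H1-2 was the member that fell. It had 30.4, 38.03 and 85.5 CPM in DMSO siNT and 19.04, 23.1 and 25.3 CPM in 4OHT siNT, on 407 to 715 and 279 to 366 counts. All senescent libraries lay below all growing ones, and the level was 50.1% of that in DMSO siNT (log2 fold change −0.996 ± 0.28, adjusted p = 0.00564, edgeR). The highest growing library was again 4-2V, where H1-2 was above the next value of 47.3 CPM. Without that library the log2 fold change was −0.72 ± 0.23 (adjusted p = 0.0113, edgeR) and the groups stayed apart. H1-10 had 45.8, 78.4 and 89.8 CPM in DMSO siNT and 64.2, 71.0 and 90.1 CPM in 4OHT siNT. Its groups overlapped throughout, and its log2 fold change was −0.00 ± 0.15 (adjusted p = 0.991, edgeR). With siRNA 2 alone it was called lower (−0.30, adjusted p = 0.0151, edgeR), on 64.2 to 67.9 CPM against 72.7 to 89.8 CPM, and with siRNA 4 alone it was at 0.33 and not called. The fit with siRNA 2 alone also called H2BC12 (0.52, adjusted p = 0.000995) and H3C4 (0.65, adjusted p = 0.0283) higher, with 57.2% of all genes called in either direction.

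The other members of the comparison had larger spreads or smaller differences. H2BC12 had 71.5, 83.7 and 124 CPM in DMSO siNT and 92.7, 105 and 117 CPM in 4OHT siNT, with overlapping groups. Its log2 fold change was 0.23 ± 0.13 (adjusted p = 0.133, edgeR). H2AC6, the H2A gene with the highest level, had 1.91, 24.02 and 32.8 CPM in DMSO siNT and 29.4, 33.5 and 35.5 CPM in 4OHT siNT, where the value of 1.91 CPM rests on 16 counts in library 4-2V. Its log2 fold change was 0.53 ± 0.33 (adjusted p = 0.183, edgeR). H3C4, the H3 gene with the highest level, had 2.14, 2.58 and 5.86 CPM in DMSO siNT and 3.60, 3.90 and 4.45 CPM in 4OHT siNT. The groups overlapped, the highest value was that of library 4-2V, and the log2 fold change was 0.27 ± 0.22 (adjusted p = 0.328, edgeR). H2BC5 and H3C10 had log2 fold changes of 0.25 ± 0.13 and 0.32 ± 0.26 and were not called. Among the fits that left out 1 library, H2BC5 was called higher only without DMSO siNT 2-2VM (0.34, adjusted p = 0.0260, edgeR). That fit called 53.1% of all genes in either direction. Leaving out DMSO siNT 4-2V brought H2AC6 (0.30 ± 0.10, adjusted p = 0.0169), H2BC12 (0.35 ± 0.10, adjusted p = 0.00685) and H3C4 (0.48 ± 0.19, adjusted p = 0.0396) past the threshold of the edgeR test, which made 11 members higher and 1 lower, with 58.3% of all genes called in either direction in that fit. The 8 members first called higher and the 1 called lower were also the ones whose libraries did not overlap, where 17% of all genes did not overlap in the higher direction and 16.8% in the lower. The 8 include H4C5 and H3C6, which passed the count rule through the 4OHT libraries, so their gaps are a description only. Without DMSO siNT 4-2V, 8 and 1 members did not overlap, beside 19.9% and 21.3% of all genes. Within the VM sets, which both groups contain, 8 members were called higher and 1 lower, with 53.5% of all genes called in either direction. These 8, like the 11 without DMSO siNT 4-2V, include H4C5 and H3C6, whose calls are a description only.

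**Figure D3:**
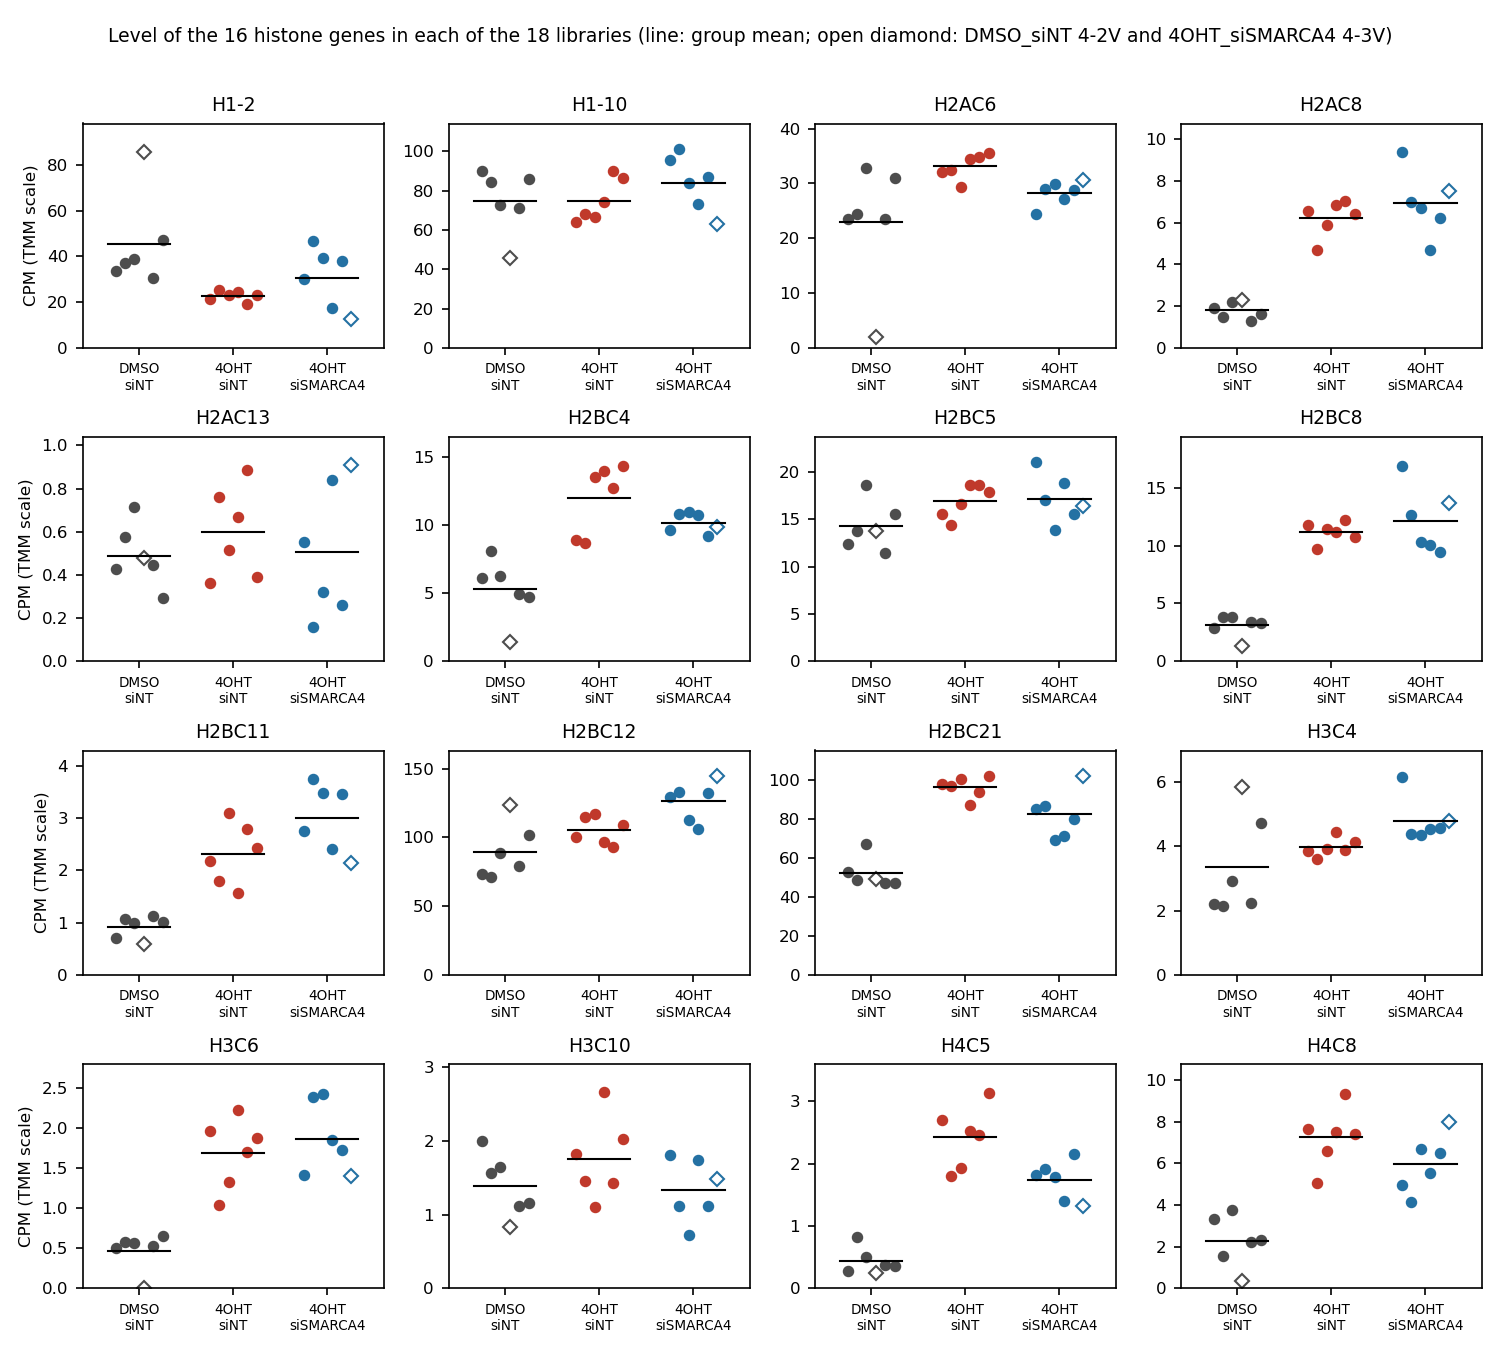
CPM on the TMM scale of the 16 genes in each of the 18 libraries (vertical axes from 0), by group. Points are libraries, lines are group means of 6, and open diamonds are DMSO siNT 4-2V and 4OHT siSMARCA4 4-3V, the libraries with 66.1 and 68.5 CPM of RNAs that lack a tail; for H4C5, H2AC8 and H2BC8 both 4OHT groups lie above all DMSO libraries, and for H1-2 the 4OHT siNT libraries lie below them.

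The second comparison set senescent cells depleted of SMARCA4 beside the same growing cells. It shares the DMSO siNT libraries with the first, so its values stand next to those given above and are not independent of them. In 4OHT siSMARCA4 against DMSO siNT, 9 of 15 members were higher and 0 lower (edgeR), where 23.3% of all genes were called higher and 27.3% lower. DESeq2 called 10 higher and 0 lower, beside 43.7% of all genes called in either direction, and 10 members had an unadjusted p under 0.05 in edgeR. The median log2 fold change was 0.66, beside −0.04 for all genes. Groups did not overlap for 8 of the members, all in the higher direction, in which 14.3% of all genes did not overlap, and for 9 without DMSO siNT 4-2V, where 17.6% did not. Both counts include H4C5 and H3C6, which passed the count rule through the 4OHT libraries.

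H2BC8 had 9.42, 11.5 and 16.9 CPM in 4OHT siSMARCA4, all above its DMSO siNT range of 1.31 to 3.87 CPM (log2 fold change 1.95 ± 0.19, adjusted p = 6.72e-08, edgeR). Its partner H2AC8 had 4.71, 6.86 and 9.37 CPM, also above its DMSO siNT range (1.95 ± 0.19, adjusted p = 3.89e-08, edgeR). For both genes the highest value came from 4OHT siSMARCA4 2-3V. H4C5 had 1.32, 1.79 and 2.16 CPM and H4C8 4.14, 6.02 and 7.9998 CPM, above every DMSO siNT library in each case. Their log2 fold changes were 1.96 ± 0.26 for H4C5 and 1.35 ± 0.30 for H4C8 (adjusted p = 0.000834, edgeR). H3C6 had 1.40, 1.79 and 2.42 CPM, at a log2 fold change of 1.91 ± 0.33. Without H4C5 and H3C6, which passed the count rule through the 4OHT libraries, 7 of 13 members were higher and 0 lower, with a median of 0.54.

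Among the H2B genes, H2BC11 had 2.14, 3.11 and 3.74 CPM in 4OHT siSMARCA4, on 26 to 47 counts, and lay above its DMSO siNT libraries (1.68 ± 0.22, adjusted p = 3.43e-06, edgeR). H2BC4 had 9.16, 10.3 and 10.9 CPM (0.93 ± 0.24, adjusted p = 0.00299, edgeR). H2BC21 had 69.3, 82.7 and 102 CPM (0.66 ± 0.11, adjusted p = 3.4e-05, edgeR), which left a narrow gap to the highest DMSO siNT library at 67.3 CPM. H2BC12 had 106, 131 and 145 CPM and was called here (0.50 ± 0.13, adjusted p = 0.00293, edgeR), though its lower libraries overlapped DMSO siNT 4-2V at 124 CPM. With siRNA 4 alone it was not called (0.33, adjusted p = 0.232), in a fit that called 31.2% of all genes. H1-2 was not called, with 12.5, 33.9 and 46.7 CPM and a log2 fold change of −0.56 ± 0.28 (adjusted p = 0.0967, edgeR). Without 4OHT siSMARCA4 2-3VM, its highest library of the group, it was called lower (−0.72, adjusted p = 0.0451), in a fit that called 47.7% of all genes. Its 4OHT siSMARCA4 libraries reached from below the senescent range into that of the growing cells, and the lowest, with 152 counts, was 4-3V, the library high in RNAs that lack a tail. H3C4 had 4.36, 4.56 and 6.14 CPM (0.54 ± 0.22, adjusted p = 0.0506, edgeR). It was called higher without DMSO siNT 4-2V (0.74, adjusted p = 0.00244, edgeR), where 59.1% of all genes were called. Without DMSO siNT 4-3VM it was called higher as well (0.68, adjusted p = 0.0174, edgeR), beside 49.9% of all genes. H2BC5 was called higher without DMSO siNT 2-2VM (0.35, adjusted p = 0.0232, edgeR), beside 50.2% of all genes. H1-10 had 62.9, 85.4 and 101 CPM and H2AC6 24.4, 28.9 and 30.6 CPM, and neither was called.

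**Figure D4:**
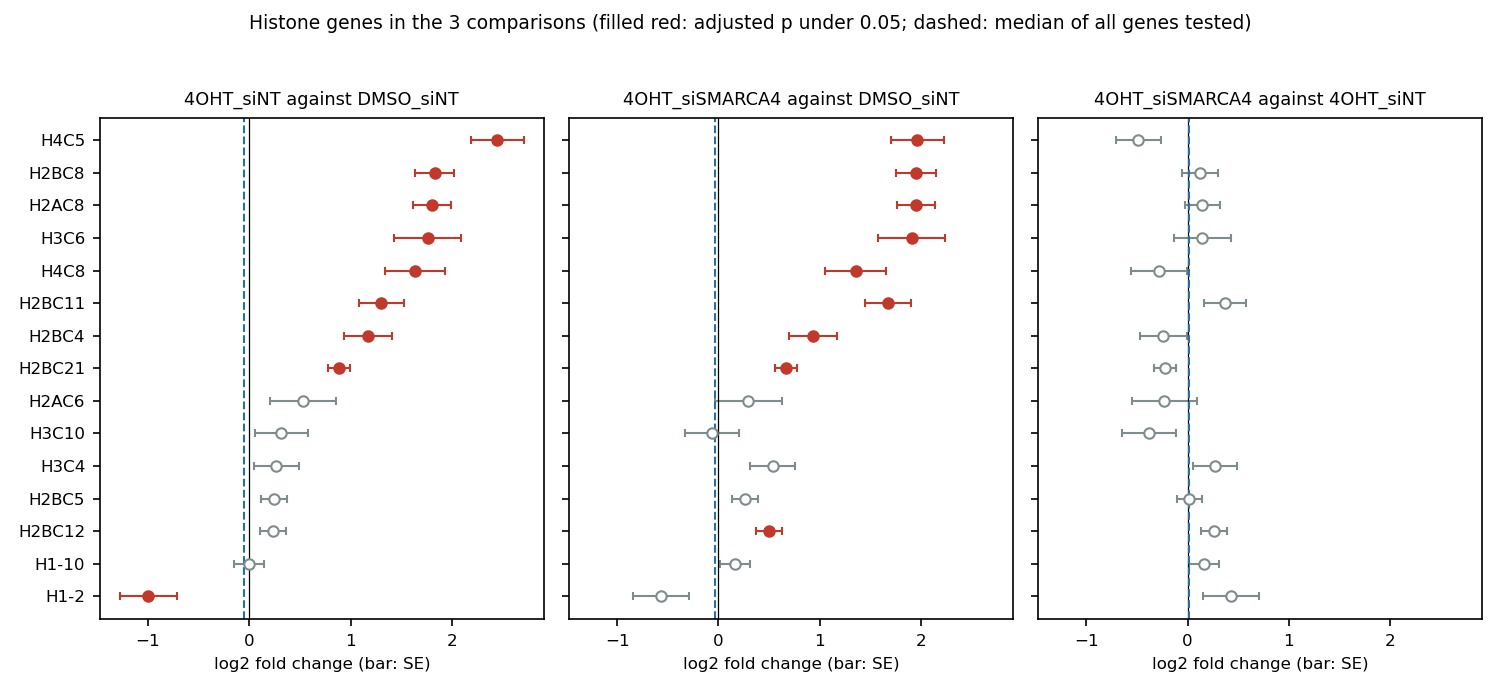
Log2 fold change with its SE for the 15 tested members in the 3 comparisons, ordered by the first (horizontal axis shared). Filled red points have an adjusted p under 0.05 (edgeR), H4C5 and H3C6 passed the count rule through the 4OHT libraries, and the dashed line is the median of all genes tested; 8 points are red to the right in 4OHT siNT against DMSO siNT with H1-2 at −0.996 to the left, 9 in 4OHT siSMARCA4 against DMSO siNT, and 0 in 4OHT siSMARCA4 against 4OHT siNT.

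The third comparison asked what the siRNA against SMARCA4 changed within senescent cells. In 4OHT siSMARCA4 against 4OHT siNT, 0 of 15 members were called in either direction by edgeR and 0 by DESeq2, where edgeR called 4.99% of all genes higher and 5.65% lower and DESeq2 called 12.9% in either direction. An unadjusted p under 0.05 was found for 2 members, and for 0 members did the libraries of the groups not overlap, against 5.12% of all genes in the higher and 6.27% in the lower direction. The median log2 fold change was 0.12, beside 0.01 for all genes, with 9 members above 0 and 6 below. The 2 with an unadjusted p under 0.05 were H4C5, at −0.48 ± 0.22 (adjusted p = 0.178, edgeR), and H2BC21, at −0.22 ± 0.11 (adjusted p = 0.200, edgeR). H2BC12 was at 0.26 ± 0.13 (adjusted p = 0.205, edgeR) and H2BC11 at 0.37 ± 0.21 (adjusted p = 0.277, edgeR). Without DMSO siNT 4-2V, which enters the shared estimate of the spread, 0 members were called as well, beside 24.6% of all genes. With standard errors of 0.11 to 0.22 on the log2 scale for these members, smaller differences could not be told from none.

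Relative to its level, H1-2 had a wide spread in this comparison, with 19.04 to 25.3 CPM in 4OHT siNT and 12.5 to 46.7 CPM in 4OHT siSMARCA4 (log2 fold change 0.43 ± 0.28, adjusted p = 0.365, edgeR). Its 4OHT siSMARCA4 libraries lay at 30.1, 39.3 and 46.7 CPM with siRNA 2 and at 12.5, 17.6 and 37.8 CPM with siRNA 4. All 3 libraries with siRNA 2 were thus above the 4OHT siNT range, while those with siRNA 4 lay on both sides of it. With siRNA 2 alone H1-2 was called higher (0.73, adjusted p = 0.00312, edgeR), with siRNA 4 alone its log2 fold change was −0.00 (adjusted p = 1.00), and within the VM sets it was called higher (0.88, adjusted p = 0.00101). Of all genes, these fits called 25.7%, 0.0303% and 21% in either direction. Without both libraries that were high in RNAs that lack a tail it was called higher as well (0.58, adjusted p = 0.0224, edgeR), and in that fit H2BC21 was called lower (−0.31, adjusted p = 0.0192), with 26.2% of all genes called. H1-10 was called higher with siRNA 2 alone (0.49, adjusted p = 0.00273, edgeR), on 83.8 to 101 CPM against 64.2 to 67.9 CPM. Whether the effect of the knockdown differed with the siRNA number was tested as an interaction, which called 0 members and 0.0146% of all genes. For H1-10 the unadjusted p of that test was 0.0213 and the adjusted p 0.571 (edgeR).

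Between the siRNA numbers within a group, 0 of 16 members were called by edgeR in each of the 3 groups, where 0.0512% of all genes were called in DMSO siNT, 0.0732% in 4OHT siNT and 0.00732% in 4OHT siSMARCA4. At an unadjusted p under 0.05 there were 3, 0 and 1 members, and DESeq2 called 1 in DMSO siNT, H2BC4 (log2 fold change 0.82, adjusted p = 0.0334), beside 15.6% of all genes. The 1 member with an unadjusted p under 0.05 in 4OHT siSMARCA4 was H1-2, at 38.7 ± 8.32 CPM with siRNA 2 and 22.6 ± 13.4 CPM with siRNA 4 (SD, n = 3 each, adjusted p = 0.759 in the edgeR fit).

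Genes that make, process or package histones, and genes of S phase, were read from the same fit as lists. All 20 S phase genes were lower in 4OHT siNT than in DMSO siNT and 0 higher, with a median log2 fold change of −1.75 beside −0.05 for all genes, and the same 20 and 0 were found without DMSO siNT 4-2V. TK1, a thymidine kinase made in S phase, fell by 5.12, RRM2, a subunit of ribonucleotide reductase, fell by 3.89, and PCNA, the clamp of the DNA polymerases, fell by 0.91 on the log2 scale. Their summed level was 754 to 1006 CPM in DMSO siNT, 301 to 351 CPM in 4OHT siNT and 298 to 350 CPM in 4OHT siSMARCA4. In these bulk samples, fewer cells in S phase and less RNA per cell cannot be told apart. Apart from H4C5 and H3C6, which passed the count rule through the 4OHT libraries, 6 histone genes were called higher. These 6 therefore moved in the opposite direction to the S phase genes, and H1-2 in the same direction, in counts from poly(A)-enriched RNA.

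Of 9 genes for the transcription of histone genes, 1 was higher and 4 were lower in 4OHT siNT against DMSO siNT, where 23.9% of all genes were higher and 28.9% lower. Without DMSO siNT 4-2V, 2 were higher and 4 lower, beside 27.9% and 30.3% of all genes. NPAT, their coactivator, was at 13.7 ± 2.72 CPM in DMSO siNT, 15.7 ± 1.53 in 4OHT siNT and 14.0 ± 2.41 in 4OHT siSMARCA4, and was not called (0.19 ± 0.14, adjusted p = 0.271, edgeR). Of the cyclins that act with CDK2, CCNE1 rose by 0.54 while CCNE2 fell by 4.10 and CCNA2 fell by 4.44 on the log2 scale. Of 18 genes for 3′ end processing, 2 were higher and 4 lower, both shares below those of all genes, and 5 were higher and 4 lower without DMSO siNT 4-2V. LSM10 and LSM11, subunits of the U7 snRNP that cleaves histone pre-mRNA, rose by 0.56 and 0.47, and CASP8AP2, which works with NPAT at histone genes, fell by 0.75. SLBP, the stem-loop binding protein, was at 82.2 ± 27.8 CPM in DMSO siNT and 60.2 ± 5.44 CPM in 4OHT siNT. It was called lower (−0.45 ± 0.15, adjusted p = 0.0208, edgeR), with 136 CPM in DMSO siNT 4-2V and 61.8 to 88.6 CPM in the others of that group. Without that library DMSO siNT stood at 71.5 ± 10.2 CPM (n = 5) and the call held at −0.24 ± 0.10 (adjusted p = 0.0370, edgeR). SLBP also stands in the list of S phase genes. Of 6 genes listed as factors against read-through past the stem-loop, PABPN1 was higher (0.84, adjusted p = 0.00112, edgeR) and 0 were lower. NELFCD was also higher without DMSO siNT 4-2V (0.25, adjusted p = 0.00433, edgeR). The list was a choice made for this report, and whether PABPN1, a poly(A)-binding protein, has that role was not tested.

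The genes listed as replication-independent histone variants did not follow the 6 histone genes called higher without H4C5 and H3C6. Of 10 tested, 1 was higher, MACROH2A1 at 0.37, and 6 were lower, with a median of −0.46 (1 and 6 without DMSO siNT 4-2V, median −0.37). H1-10 stands in this list and also among the tested members. Of the H2A variants, H2AZ1 fell by 0.58, H2AZ2 fell by 0.59 and H2AX fell by 0.51 on the log2 scale, and CENPA, the H3 variant of centromeres, fell by 4.28. The list was not split by whether a variant is made mainly in dividing cells. The part of fewer dividing cells in these falls was not tested. Of 18 histone chaperones 6 were higher and 9 lower, and 6 and 8 without that library. CHAF1B and ASF1B, which deliver histones to newly made DNA, fell by 3.28 and fell by 4.74 on the log2 scale, whereas HIRA, UBN1 and DAXX, which deposit the H3.3 variant outside replication, rose by 0.41, 0.56 and 0.58. ATRX, the partner of DAXX in that deposition, was called lower (−1.12 ± 0.34, adjusted p = 0.0102, edgeR), and at −0.42 ± 0.13 without DMSO siNT 4-2V (adjusted p = 0.00933). In 4OHT siSMARCA4 against DMSO siNT, which shares its controls, 0 of the S phase genes were higher and 19 lower, and 3 chaperones were higher and 7 lower. There, 2 genes of transcription were higher and 5 lower, 2 of 3′ end processing higher and 3 lower, 2 factors against read-through higher and 0 lower, and 0 variants higher and 5 lower. Without DMSO siNT 4-2V, 3 of 3′ end processing were higher and 3 lower and 3 factors against read-through were higher, and the other counts were equal.

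In 4OHT siSMARCA4 against 4OHT siNT, 0 of 18 genes for 3′ end processing, 0 of 18 chaperones and 0 of the 6 factors against read-through were called, where 4.99% of all genes were higher and 5.65% lower. Without DMSO siNT 4-2V, which is in neither group but in the fit, 1 gene of 3′ end processing was higher and 1 lower, 2 chaperones and 1 of the 6 factors were lower, and 24.6% of all genes were called. SLBP was at 76.6 ± 7.18 CPM with the siRNA against SMARCA4 (0.35 above 4OHT siNT on the log2 scale, adjusted p = 0.169, edgeR), and was called in the fit without that library (0.34 ± 0.09, adjusted p = 0.0117, edgeR). Single genes of the other lists were called. RRM2 was higher (1.07, adjusted p = 0.00499), as were CCNE2 (1.35, adjusted p = 0.0176), CCNA2 (0.80, adjusted p = 0.0415) and CENPA (1.29, adjusted p = 0.0315), and CDK2 was lower (−0.71, adjusted p = 0.00731; all edgeR). Without DMSO siNT 4-2V, 3 S phase genes were higher and 2 lower in place of 1 and 0, 3 genes of transcription higher and 1 lower in place of 2 and 1, and 2 variants higher and 1 lower in place of 1 and 0.

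**Figure D5:**
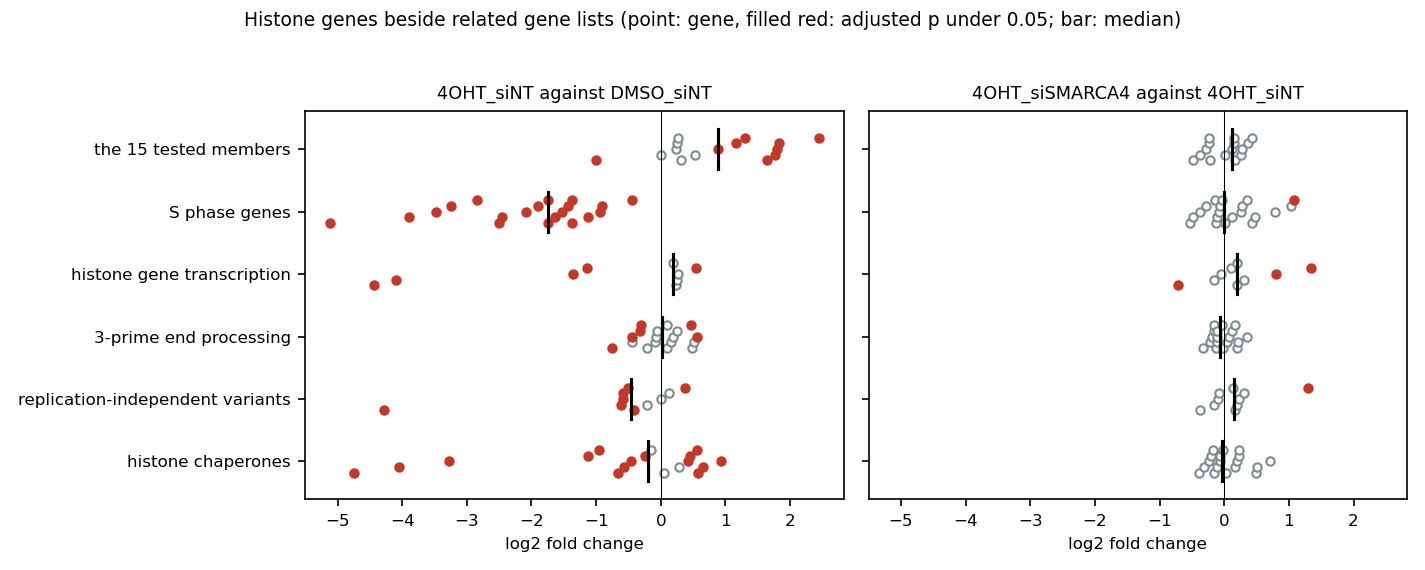
Log2 fold change of each gene in the 15 tested histone genes and 5 related lists, for 4OHT siNT against DMSO siNT (left) and 4OHT siSMARCA4 against 4OHT siNT (right). Filled red points have an adjusted p under 0.05 (edgeR) and the bar is the median of the list. On the left the histone genes have a median of 0.89 and the S phase genes one of −1.75. Without H4C5 and H3C6, which passed the count rule through the 4OHT libraries, the histone median is 0.53.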

How the data were processed

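RNA was measured in IMR90 ER:RAS cells by sequencing of poly(A)-enriched, strand-specific, single-end libraries. The deposited values were raw counts per gene, which the authors did not normalize, in 1 column per library and lane. Per the submitters' processing notes, STAR 2.7.8a aligned the reads to hg38 and DESeq2 1.36.0 was used; the counting program, its annotation and its strand setting are not given in the sources used here. The 2 lanes of each library were summed. Of 29 labelled samples, 17 matched a library; the rest were not analysed here. A further library of 4OHT siSMARCA4 with siRNA 2 had a set name that no title of that siRNA had, and it was used without a set label. Within groups no 2 libraries were alike within sampling noise (chi-square per degree of freedom 2.33 to 315 over 45 pairs).

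Genes were kept by filterByExpr (minimum count 10), which left 13136 genes with 99.9% of the counts. Libraries were scaled by TMM and tested with the quasi-likelihood method of edgeR 4.0.16 (limma 3.58.1, R 4.3.3), with all 18 libraries of the 3 groups in 1 fit and no covariate. Adjusted p-values are by Benjamini-Hochberg over all genes tested, and SEs are the size of the log2 fold change divided by the root of F. The common biological coefficient of variation was 23.3%. On counts simulated for 4OHT siNT against DMSO siNT, edgeR recovered 82% of 100 genes changed 2-fold and 100% of 100 changed 4-fold, with 5.21% false calls among those made (13035 genes tested); DESeq2 1.42.0, run as an alternative, recovered 89% and 100% with 16.7% false (13136 genes). Alternatives were DESeq2 size factors and test, other count filters, a replicate block, VM sets, single siRNA numbers, 2 groups in the fit, stricter thresholds and leaving out each library. Chosen only after the data had been seen were the fits without both libraries high in RNAs that lack a tail, those that added the unlabelled library to the VM sets, the list counts without DMSO siNT 4-2V and the member counts without H4C5 and H3C6.

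The members and all gene lists were chosen with earlier results of these data known. Values were given for each member called in any comparison, for the H1 genes and for the highest member of each class. Stem-loops, transcripts and unique 72-base windows came from GENCODE 44 on hg38 and promoters from RefSeq (GRCh38.p14), by gene symbol; all 69 symbols were found in GENCODE, and promoters were found for 62 (16 and 46).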

Additional observations from a re-analysis of the deposited data

Results flagged for a closer look

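In each group of 6 libraries, the gap between the highest or lowest value and its neighbour was divided by the range of the group, on a log2 scale, and held against Dixon's critical value for 6 values. Of 48 sets of values, 7 passed, where chance gives 2.4. Of these 7, 5 were lowest values in DMSO siNT 4-2V, the library with the fewest counts and a high level of RNAs that lack a poly(A) tail. They were H2AC6 at 1.91 CPM and 16 counts (ratio 0.876), H3C6 at 0 counts (ratio 0.826), H2BC8 at 1.31 CPM and 11 counts (ratio 0.722), H2BC4 at 1.43 CPM and 12 counts (ratio 0.669) and H1-10 at 45.8 CPM and 383 counts (ratio 0.656). In the same library H1-2 was the highest of its group, at 85.5 CPM, so the members did not all lie to one side. The other values past the limit were H2BC21 in DMSO siNT 2-2VM, highest at 67.3 CPM and 943 counts (ratio 0.676), and H3C4 in 4OHT siSMARCA4 2-3V, highest at 6.14 CPM and 78 counts (ratio 0.734). The cause of these values was not tested.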

How the results depend on the processing

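No result past the threshold changed direction under the alternatives run. Counts of called members moved by over 1.5 times in few of them. In 4OHT siNT against DMSO siNT, the 1 lower member became 2 with siRNA 2 alone (H1-2 and H1-10) and 0 over 2-fold, where H1-2 just missed. In 4OHT siSMARCA4 against 4OHT siNT, the higher members went from 0 to 1 in the VM sets, 1 with the unlabelled library added (H1-2 both times; 30.4% of all genes called), 1 with 2 groups in the fit (H2BC12, 0.26, adjusted p = 0.0333; 26.9% of all genes called), 2 with siRNA 2 alone and 1 without the libraries high in RNAs that lack a tail (H1-2). The lower members went from 0 to 1 with the unlabelled library added (H2BC21, −0.31, adjusted p = 0.0480), 1 with 2 groups (H2AC6, −0.23, adjusted p = 0.0387) and 1 without those libraries (H2BC21). In DMSO siNT, DESeq2 called 1 member between the siRNA numbers where edgeR called 0. The log2 ratio of summed H1 between 4OHT siNT and DMSO siNT was −0.30, and −1.001 without H1-10. Apart from the alternatives' own construction, causes were not tested.

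Leaving out 1 library at a time gave 8 to 11 higher and 1 lower in 4OHT siNT against DMSO siNT (11 without DMSO siNT 4-2V). Of all genes, 49% to 58.3% were called in either direction in those fits. In 4OHT siSMARCA4 against DMSO siNT 9 to 10 were higher and 0 to 1 lower, beside 47.6% to 59.1% of all genes. In 4OHT siSMARCA4 against 4OHT siNT 0 were called, beside 6.93% to 24.6% of all genes. Libraries with the same siRNA number and set label did not deviate together (7 pairs, r from −0.286 to 0.166, 1 over 0.1), so the labels were not taken to pair them. In a fit with a replicate block for the set label, 8 members were higher and 0 lower in 4OHT siNT against DMSO siNT (H1-2 at −1.06, adjusted p = 0.0524), 7 higher in 4OHT siSMARCA4 against DMSO siNT, without H2BC12 and H2BC4, and 0 in 4OHT siSMARCA4 against 4OHT siNT, where 32.7%, 35.1% and 1.77% of all genes were called. The higher members counted against DMSO siNT in the block fit and with 1 library left out include H4C5 and H3C6. Both passed the count rule through the 4OHT libraries, so their calls are a description only. Depth limits the 53 members under the count rule, of which 14 have fewer than 50% unique windows, and H4C5, H3C6 and H2BC11 rest on under 50 counts per library.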
